A study of Mus musculus with 20 samples.

Results

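The genes described here are 10 genes of the unfolded protein response, chosen by symbol: Hspa5, Hsp90b1, Xbp1, Atf4, Atf6, Ddit3, Herpud1, Dnajb9, Pdia4 and Sdf2l1. They were read in the femoral shaft of Hyp mice and normal littermates as a possible sign of the load that matrix secretion puts on bone cells. On the array 23 of 45101 probe sets were annotated to them. Of these, 20 were called present on at least 5 of the 20 arrays and were tested, out of 27141 tested in all.

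The mice were 5 weeks old, on the C57BL/6J background, and fell into 4 groups of 5 arrays each. They were hemizygous Hyp males (Hyp/Y), normal wild-type males, heterozygous Hyp females (Hyp/+) and normal wild-type females. Hyp deletes part of Phex, which lies on the X chromosome and encodes an endopeptidase of osteoblasts and osteocytes, and serves as a mouse model of X-linked hypophosphatemia. For each array the RNA of 2 mice of 1 group was pooled, 40 mice in all, and each of the 5 series held 1 array of every group, matched for littermates and processed in parallel. Hyp and normal arrays of 1 series and sex thus form 10 pairs, 5 of each sex. The shafts were cut from the femur at the end of the diaphysis and flushed with saline, so some marrow and attached tissue can remain. In Hyp females one X chromosome carries the normal Phex gene.

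The unfolded protein response adjusts the endoplasmic reticulum (ER) to the amount of protein passing through it. Its sensors Ire1 (gene Ern1), Perk (gene Eif2ak3) and Atf6 are held by the chaperone BiP, the product of Hspa5. When they are released, Ire1 splices Xbp1 mRNA, Atf6 is cut to an active transcription factor, and Perk phosphorylates eIF2α, which favours translation of Atf4 and later expression of Ddit3. The factors raise transcription of chaperones such as Hspa5 and Hsp90b1 and of degradation genes such as Herpud1. Osteoblasts secrete large amounts of collagen and depend on this system, with Atf4 and Xbp1 both known to act in osteoblast differentiation in mice. The arrays measured transcript signal only, and no splicing, cleavage or phosphorylation.

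The promoters of 3 members are shown because they carry the exact sequence elements through which the response is known to act. RefSeq windows (GRCm38.p6) were matched for 9 of the 10 genes and cover 250 bases before the start to 50 after it. Each sequence below gives the 250 bases before the start, read 5′ to 3′ on the gene's own strand, with the matched elements in capitals.
Hspa5 chr2:34771840-34772089 (plus strand): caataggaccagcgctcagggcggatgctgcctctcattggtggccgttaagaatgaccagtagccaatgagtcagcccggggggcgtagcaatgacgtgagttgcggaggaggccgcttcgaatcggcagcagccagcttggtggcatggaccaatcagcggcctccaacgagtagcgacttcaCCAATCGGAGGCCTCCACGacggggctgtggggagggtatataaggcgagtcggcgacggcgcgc
Hsp90b1 chr10:86705445-86705694 (minus strand): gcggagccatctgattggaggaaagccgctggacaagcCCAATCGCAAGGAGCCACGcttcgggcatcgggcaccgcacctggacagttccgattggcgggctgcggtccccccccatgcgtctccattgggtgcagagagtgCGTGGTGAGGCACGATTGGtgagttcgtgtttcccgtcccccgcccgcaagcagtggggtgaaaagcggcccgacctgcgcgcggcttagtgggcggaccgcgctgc
Herpud1 chr8:94386179-94386428 (plus strand): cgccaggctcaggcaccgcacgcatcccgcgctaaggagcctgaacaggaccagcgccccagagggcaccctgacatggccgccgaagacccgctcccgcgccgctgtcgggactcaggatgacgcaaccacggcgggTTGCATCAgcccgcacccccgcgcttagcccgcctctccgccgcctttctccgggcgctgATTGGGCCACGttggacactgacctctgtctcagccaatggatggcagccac
Searched on both strands, the ER stress response element, CCAAT and CCACG with 9 bases of any kind between them, lay in the windows of 2 members, Hspa5 and Hsp90b1, and in 0.119% of all 32851 windows. In Hspa5 it began 65 bases before the start. In Hsp90b1 a forward copy began 212 bases before the start and a reverse copy, the second run of capitals, 107 bases before it. Herpud1 held the related element II, ATTGG and CCACG with 1 base between them, 52 bases before its start, as 0.0365% of all windows do, and the CEBP-ATF composite site TTGCATCA, held by 0.895%, 112 bases before it. The unfolded protein response element TGACGTGG was in the window of 0 members and in 0.676% of all. These are matches of letters and not measured binding sites. In the capitals shown the elements do not overlap one another.

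Signals are the deposited linear values of brightness, in arbitrary units. All 20 arrays share a trimmed mean of 500.0, and the share of probe sets with a present call was 49.3% to 56.9%. Arrays have no read depth, so the number of arrays limits the precision. Phex, the mutated gene, averaged a signal of 378 ± 391 in Hyp and 3915 ± 995 in normal shafts (SD, n = 10 arrays each) and was lower in Hyp in 10 of 10 pairs. These means join the sexes, and the log2 fold change of Phex was -6.28 in males and -2.61 in females. Where its probes lie relative to the deletion was not looked up. The actin 3′/5′ signal ratio, a measure of RNA integrity, averaged 1.78 ± 0.090 in Hyp males, 1.59 ± 0.12 in normal males, 1.62 ± 0.065 in Hyp females and 1.50 ± 0.079 in normal females (SD, n = 5). On the log2 scale it differed by 0.14 ± 0.087 (SD over pairs), Hyp minus normal, and was higher in Hyp in 9 of 10 pairs. In RNA of whole shafts, fewer cells of a type and less RNA per cell cannot be told apart.

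Over both sexes, the 10 genes showed small differences, most of them toward lower signal in Hyp. With limma, adjusted over all probe sets tested, 1 of the 20 member probe sets passed the threshold of 0.05, an Xbp1 probe set that fell in Hyp, where 2.38% of all probe sets tested passed (1.3% toward lower signal). Read by the brightest probe set of each gene, 0 of 10 genes passed, and the smallest adjusted p was 0.0971. At an unadjusted p under 0.05 there were 10 of 20, against 20.2% of all probe sets tested. Of these 8 were lower in Hyp, against 8.73% of all, and 2 higher, against 11.5%. The log2 fold change was negative for 14 of 20 member probe sets and for 47.6% of all. Some genes have several probe sets in these counts. By the brightest probe set, 6 of 10 genes had an unadjusted p under 0.05, 4 lower and 2 higher, and 7 of 10 had negative fold changes. The median was -0.15 over the 20 member probe sets and -0.17 over the brightest of each of the 10 genes, against 0.01 over all probe sets tested. No member probe set was lower in 10 of 10 pairs, as 1.04% of all were, or higher in 10 of 10, as 1.31% were, and 4 of 20 were lower in at least 9, as were 4.49% of all. In 0 of 20 did the 10 Hyp arrays lie apart from the 10 normal arrays, as 0.0921% of all probe sets did. Fold changes below are on the scale of log2(signal + 16), Hyp over normal.

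**Figure D1:**
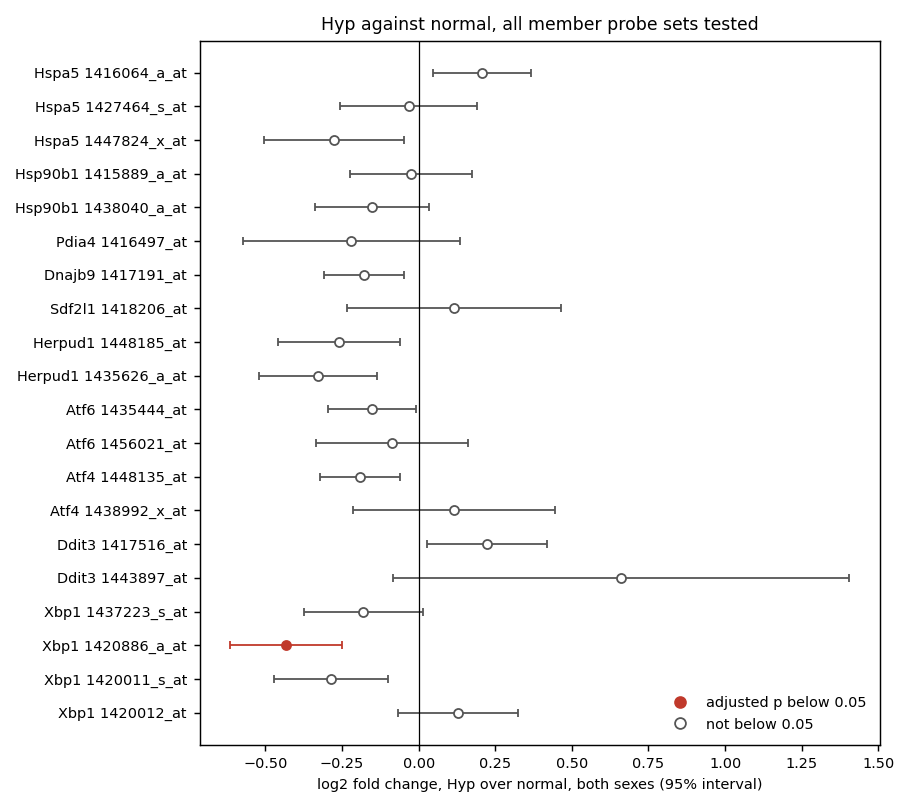
Log2 fold change of Hyp over normal over both sexes (x axis) for the 20 member probe sets tested, with 95% intervals from the limma fit. The filled point is Xbp1 1420886_a_at, at -0.43, and open points did not pass the adjusted threshold.

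Xbp1 encodes a transcription factor that Ire1 activates by splicing its mRNA and that induces chaperone and degradation genes. Its probe set 1420886_a_at had signals of 4002.1, 4601.1, 4857.1, 4473.0 and 5142.7 in Hyp males of series 1 to 5, against 5541.4, 7069.2, 4506.2, 7631.6 and 7871.8 in normal males. Hyp females had 4844.8, 4388.4, 5029.3, 4697.4 and 5468.9, against 5352.5, 6490.6, 6215.7, 6346.1 and 7807.1 in normal females. The Hyp arrays were narrowly spread and low, and in each sex 1 normal array reached into the Hyp range, that of series 3 in males and of series 1 in females. Group means were 4615 ± 428 in Hyp males, 6524 ± 1447 in normal males, 4886 ± 402 in Hyp females and 6442 ± 882 in normal females (SD, n = 5). Ordered by mean, from Hyp males through Hyp females and normal females to normal males, the sexes of 1 genotype were neighbours and differed by less than their SDs. The probe set fell in Hyp by 0.43 ± 0.086 (SE) on the log2 scale, with a 95% interval of -0.61 to -0.25 and an adjusted p of 0.0205, and was lower in 9 of 10 pairs.

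The other 3 Xbp1 probe sets did not pass. The brightest, 1437223_s_at, averaged 7709 ± 573 in Hyp males, 9334 ± 2172 in normal males, 8315 ± 1217 in Hyp females and 9042 ± 1722 in normal females, with a log2 fold change of -0.18 ± 0.092 (adjusted p = 0.288), lower in 7 of 10 pairs. Probe set 1420011_s_at had -0.29 ± 0.088 (adjusted p = 0.0881) and was lower in 9 of 10 pairs. The dim 1420012_at, called present on 17 of 20 arrays, had 0.13 ± 0.092. The suffix s marks probe sets that match several transcripts, x those with probes found in other sequences too, and a those shared by transcripts of 1 gene. Over the 20 arrays, with group means removed, the 3 brighter Xbp1 probe sets correlated with each other at r = 0.789 to 0.915, and with 1420012_at at -0.15 to 0.05 (a description, with no test). The call for 1420886_a_at was not kept with the actin ratio as a covariate. There the log2 fold change was -0.44 and the adjusted p was 0.281, with an SE of 0.15 against 0.086 without the covariate. The ratio was itself higher in Hyp in 9 of 10 pairs, so that fit can hardly tell it apart from genotype. The call was also lost when series 1, 2, 4 or 5 was left out. Over all 25 omissions of an array or a series, log2 fold changes were -0.51 to -0.39.

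**Figure D2:**
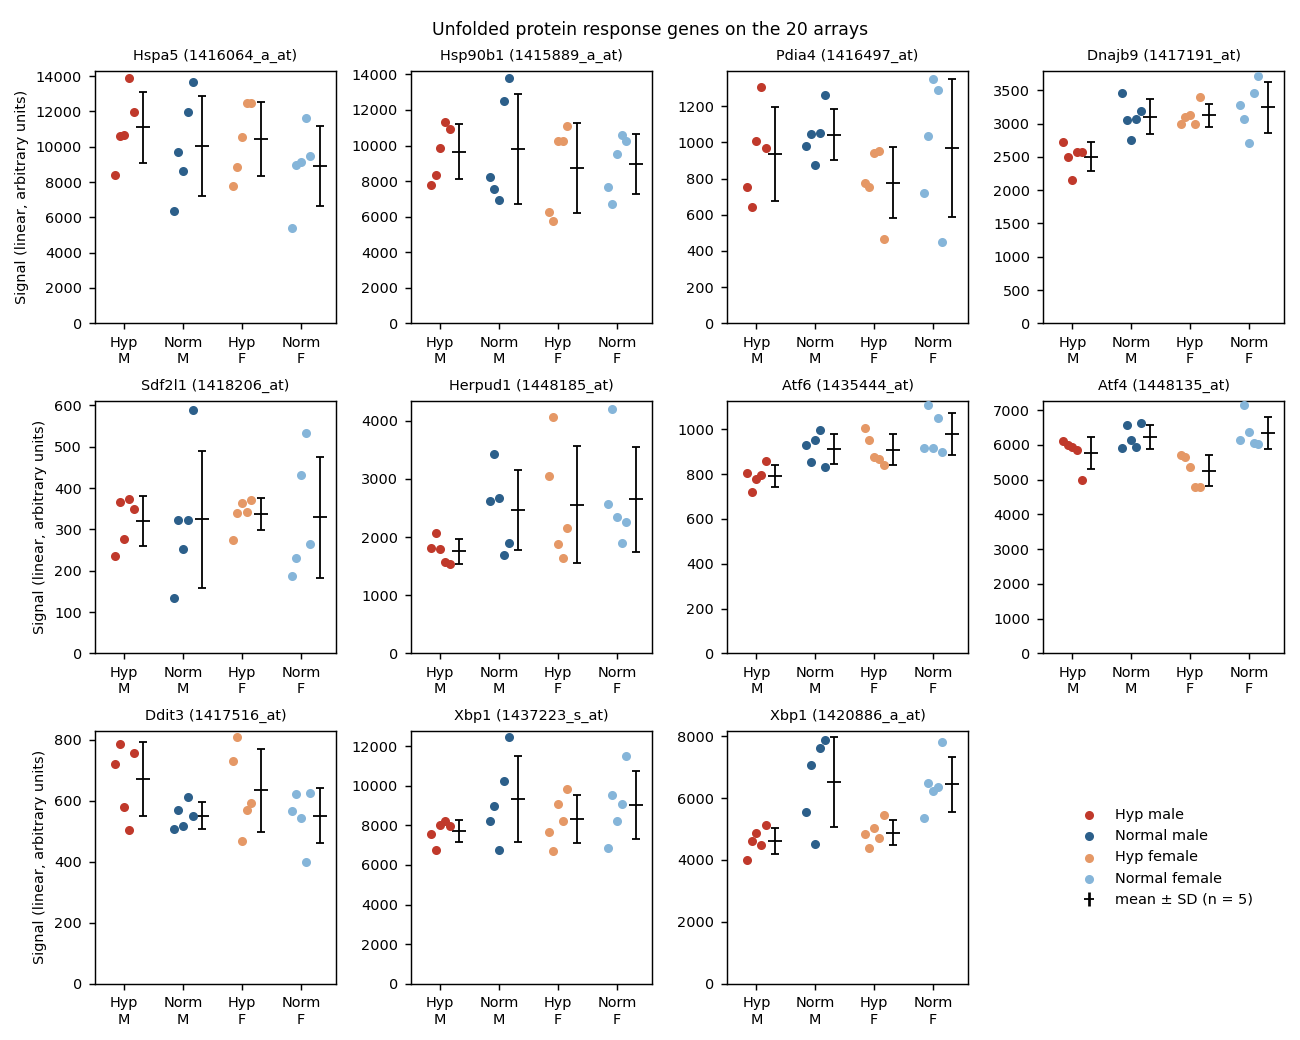
Signal (linear y axes from 0, arbitrary units) on each array, by group from left to right Hyp males, normal males, Hyp females and normal females, for the brightest probe set of each of the 10 genes and for Xbp1 1420886_a_at. Points are arrays and bars are mean ± SD (n = 5). Hyp and normal arrays overlap in most panels, and the Hyp points of Xbp1 1420886_a_at lie between 4002.1 and 5468.9.

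Atf6 encodes the sensor whose cleaved part induces Hspa5 and other chaperones. Its brighter probe set, 1435444_at, averaged 792 ± 48.9 in Hyp males, 913 ± 68.1 in normal males, 908 ± 69.2 in Hyp females and 978 ± 94.3 in normal females. The difference was -0.15 ± 0.068 on the log2 scale (adjusted p = 0.224), lower in 8 of 10 pairs. The Hyp male arrays, at 720.6 to 856.5, overlapped the normal male arrays, at 833.1 to 997.0. The dimmer 1456021_at was called present on 5 of 10 Hyp arrays and 10 of 10 normal arrays, at mean signals of 364 ± 77.7 and 383 ± 50.4 (SD, n = 10), and had a log2 fold change of -0.09 ± 0.12. A further Atf6 probe set, 1453288_at, was called present on 3 of 20 arrays and was not tested.

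Atf4 encodes the transcription factor translated when Perk and related kinases phosphorylate eIF2α. Its brightest probe set, 1448135_at, had 6101.2, 6000.8, 5939.8, 5856.5 and 4975.2 in Hyp males, against 5909.3, 6583.2, 6127.7, 5943.7 and 6623.7 in normal males. In Hyp females it had 5709.4, 5663.0, 5368.2, 4781.4 and 4777.8, against 6133.4, 7146.4, 6357.4, 6064.1 and 6034.4 in normal females. The 5 Hyp females lay below all 5 normal females, the one member probe set of 20 for which the female groups did not overlap, where 1.83% of all probe sets tested did so, and the male groups overlapped. Over both sexes it had a log2 fold change of -0.19 ± 0.061 (adjusted p = 0.0971), lower in 9 of 10 pairs. It was -0.11 ± 0.087 in males and -0.27 ± 0.087 in females, and the difference between the sexes, 0.16 ± 0.12, did not pass (adjusted p = 0.835). The second probe set, 1438992_x_at, pointed the other way at 0.12 ± 0.15 (adjusted p = 0.727), and the residuals of both correlated at r = -0.52. The remaining Atf4 probe set, 1439258_at, was called present on 0 of 20 arrays.

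Ddit3 encodes Chop, a factor induced late in sustained stress and linked to cell death. Probe set 1417516_at had 720.0, 788.2, 581.2, 505.3 and 757.8 in Hyp males, against 506.6, 571.8, 516.8, 614.1 and 550.2 in normal males. In Hyp females it had 731.9, 809.0, 467.4, 570.3 and 593.5, against 566.3, 621.2, 544.0, 400.9 and 624.8 in normal females. In series 1 and 2 all 4 Hyp arrays were above their normal partners, and in series 3 to 5 the pairs went both ways. Its log2 fold change was 0.22 ± 0.093 with an adjusted p of 0.189, higher in 7 of 10 pairs. The dim 1443897_at ranged from 82.7 to 290.3 on the Hyp arrays and from 6.6 to 314.6 on the normal arrays and gave 0.66 ± 0.35 (adjusted p = 0.305).

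Hspa5 encodes BiP, the main ER chaperone and the usual readout of this response. Its brightest probe set, 1416064_a_at, had 8387.5, 10613.0, 10668.7, 13886.5 and 11940.9 in Hyp males, against 6343.0, 9704.0, 8631.9, 11943.6 and 13648.1 in normal males. Hyp females had 7782.0, 8874.3, 10534.0, 12505.7 and 12462.8, against 5371.7, 8979.0, 9131.7, 11656.0 and 9503.6 in normal females. Hyp arrays were above their partners in 8 of 10 pairs, while the groups overlapped over most of their range. The log2 fold change was 0.21 ± 0.075, with a 95% interval of 0.05 to 0.37 and an adjusted p of 0.136. The other probe sets did not share this direction. Probe set 1427464_s_at had -0.03 ± 0.10 (adjusted p = 0.901), and 1447824_x_at had -0.28 ± 0.11 (adjusted p = 0.164), lower in 8 of 10 pairs. Mean signals of 1447824_x_at were 1647 ± 159 in Hyp males, 2033 ± 467 in normal males, 1660.0 ± 209 in Hyp females and 2012 ± 183 in normal females. The sign of an Hspa5 difference thus depends on the probe set, and none passed.

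Hsp90b1 encodes Grp94, the ER member of the Hsp90 family. Its brighter probe set, 1415889_a_at, averaged 9648 ± 1547 in Hyp males, 9809.9 ± 3118 in normal males, 8733 ± 2508 in Hyp females and 8957 ± 1691 in normal females. The log2 fold change of -0.03 ± 0.094 had a 95% interval of -0.22 to 0.17 (adjusted p = 0.914), and its sign turned when series 1 was left out. The second probe set, 1438040_a_at, gave -0.15 ± 0.087 (adjusted p = 0.344). Both probe sets followed each other closely over the arrays, at r = 0.924 with group means removed.

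Dnajb9 encodes ERdj4, a co-chaperone of BiP and a target of spliced Xbp1. Its probe set 1417191_at had 2725.0, 2501.0, 2153.8, 2578.6 and 2567.4 in Hyp males, against 3465.7, 3049.4, 2752.7, 3072.5 and 3185.3 in normal males. Hyp females had 2986.9, 3097.0, 3125.3, 3000.8 and 3402.7, against 3284.2, 3067.7, 2712.4, 3453.5 and 3717.5 in normal females. All 5 Hyp males lay below all 5 normal males, the one member probe set of 20 whose male groups did not overlap, as against 2.53% of all probe sets tested, while the female groups overlapped. The log2 fold change was -0.31 ± 0.087 in males (adjusted p = 0.104), -0.05 ± 0.087 in females (adjusted p = 0.896) and -0.18 ± 0.062 over both (adjusted p = 0.121).

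Pdia4 encodes Erp72, a protein disulfide isomerase of the ER. Its tested probe set, 1416497_at, averaged 936 ± 257 in Hyp males, 1044 ± 141 in normal males, 777 ± 197 in Hyp females and 969.7 ± 382 in normal females, a log2 fold change of -0.22 ± 0.17 (adjusted p = 0.490). The females of series 5 were lowest in both genotypes, at 464.9 in Hyp and 450.7 in normal. The second Pdia4 probe set, 1450620_at, was called present on 0 of 20 arrays. Sdf2l1 encodes a stress-inducible partner of ER chaperone complexes. Its signals ranged from 236.2 to 374.3 on the Hyp arrays, with a median of 346.6, and from 135.1 to 588.3 on the normal arrays, with a median of 294.2. The normal arrays thus spread over a wider range on both sides, and the log2 fold change was 0.11 ± 0.16 (adjusted p = 0.746).

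Herpud1 encodes an ER membrane protein of the degradation machinery that is induced by ER stress. Its brighter probe set, 1448185_at, had 1816.0, 2068.1, 1793.5, 1568.1 and 1542.2 in Hyp males, against 2618.6, 3425.2, 2664.2, 1692.1 and 1906.3 in normal males. Hyp females had 3048.1, 4072.3, 1876.7, 1641.4 and 2157.2, against 2560.8, 4209.1, 2344.3, 1893.2 and 2253.7 in normal females. Every Hyp male lay below its normal partner, with overlap between the groups, and the female groups covered the same range. The log2 fold change was -0.26 ± 0.094 over both sexes (adjusted p = 0.134), -0.45 ± 0.13 in males (adjusted p = 0.113) and -0.08 ± 0.13 in females (adjusted p = 0.894). The second probe set, 1435626_a_at, gave -0.33 ± 0.090 over both (adjusted p = 0.0624), -0.52 ± 0.13 in males (adjusted p = 0.0885) and -0.14 ± 0.13 in females (adjusted p = 0.769). Both Herpud1 probe sets correlated at r = 0.851.

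Within the sexes, 0 of 20 member probe sets passed in males, where 0.0995% of all probe sets tested passed, and 0 of 20 in females, where 0.00368% did. Unadjusted p under 0.05 was reached by 5 of 20 in males, all 5 lower in Hyp, against 17.9% of all and 7.65% toward lower, and by 3 of 20 in females, against 10.1%. In males the 5 were both Herpud1 probe sets, Dnajb9 and the Xbp1 probe sets 1420886_a_at and 1420011_s_at. All 5 male pairs were lower in Hyp for 4 of 20, both Herpud1 probe sets, Dnajb9 and Atf6 1456021_at, as for 5.24% of all, and all 5 female pairs for 3 of 20, as for 5.99% of all. The difference between the sexes, males minus females, was tested as an interaction, and 0 of 20 passed where 0.00368% of all did. An unadjusted p under 0.05 was reached by 1 of 20, against 6.62% of all. This was Herpud1 1435626_a_at at -0.38 ± 0.18 (adjusted p = 0.751), and Dnajb9 stood at -0.26 ± 0.12 (adjusted p = 0.753). That Herpud1 and Dnajb9 differ in their response between males and females is therefore not shown by this test. Averaged over genotypes, 0 of 20 passed for females against males, where 0.133% of all did. Herpud1 1448185_at was higher in females by 0.28 ± 0.094 on the log2 scale (adjusted p = 0.211) and Dnajb9 by 0.19 ± 0.062 (adjusted p = 0.202), neither past the threshold.

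The members varied between series as well as between genotypes. For 16 of 20 probe sets the log2 range of the 5 series means exceeded the Hyp minus normal difference, as it did for 91.7% of all probe sets tested. The median range over the series was 0.56 for the members and 0.42 for all probe sets tested. Hspa5 1416064_a_at averaged 6971 in series 1, 9543 in series 2, 9742 in series 3, 12498 in series 4 and 11889 in series 5, a log2 range of 0.86. Hsp90b1 1415889_a_at averaged 7494 and 7095 in series 1 and 2, against 9156, 11168 and 11523 in series 3 to 5. Herpud1 1448185_at went the other way, at 2511 and 3444 in series 1 and 2, against 2170, 1699 and 1965 in series 3 to 5. A mean of series 1 and 2 minus that of series 3 to 5 was -0.48 for Hspa5, -0.53 for Hsp90b1 and -0.50 for Sdf2l1 on the log2 scale, and 0.57 for Herpud1 and 0.24 for Ddit3. Arrays of a series were matched for littermates and processed in parallel, so differences between litters and between processing rounds cannot be told apart.

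**Figure D3:**
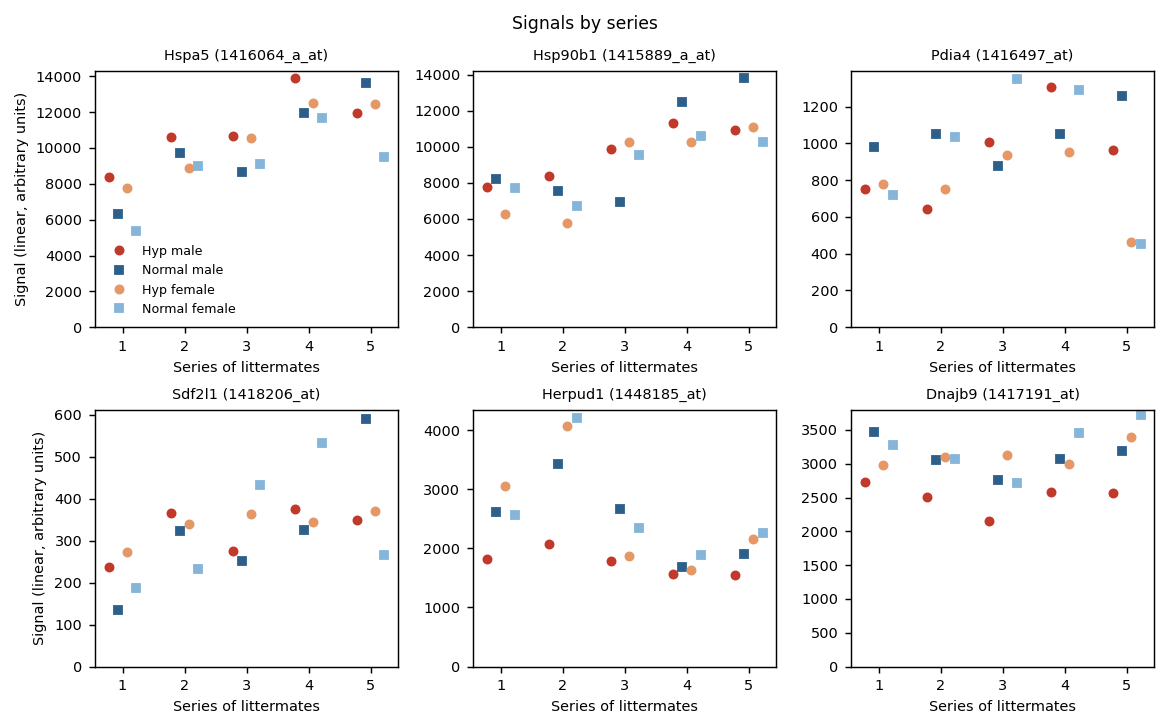
Signal (linear y axes from 0, arbitrary units) by series of littermates (x axis) for the brightest probe sets of 6 members. Circles are Hyp and squares normal arrays, dark for males and light for females. By series mean Hspa5 and Hsp90b1 are lowest in series 1 and 2, where Herpud1 is highest, and all 5 Hyp males of Dnajb9 lie below the normal males.

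Members were also compared with each other over the 20 arrays once group means were removed. Pearson's r was 0.830 for Hspa5 and Sdf2l1, 0.745 for Hspa5 and Hsp90b1, 0.744 for Hsp90b1 and Xbp1 and 0.695 for Hspa5 and Xbp1. Herpud1 ran against them, at -0.88 with Hsp90b1 and -0.52 with Hspa5, and with Atf4 at 0.647 and Ddit3 at 0.541. The other folding genes lay lower. Pdia4 had 0.316 with Hspa5 and 0.182 with Hsp90b1, and Dnajb9 had 0.002 with Hspa5 and 0.227 with Hsp90b1. These values are descriptions without a test, since arrays of a series were matched for littermates and processed in parallel. Over the 10 pair differences, where the series cancels, r was 0.737 for Hspa5 and Xbp1 and 0.663 for Hspa5 and Sdf2l1. With Hspa5, Hsp90b1 then had 0.285 and Pdia4 0.514, so their order turned. With Hsp90b1, Herpud1 kept its sign at -0.59. The signs of Herpud1 with Hspa5 (0.219), Atf4 (-0.28) and Ddit3 (-0.20) turned. Outside the members, the probe sets most like Hspa5 1416064_a_at over the 20 arrays were Scd2 1415823_at (r = 0.924), Manf (0.920), Creld2 (0.917), Selenok (0.915) and Scd2 1415822_at (0.906). Manf and Creld2 encode stress-inducible ER proteins, Selenok an ER selenoprotein and Scd2 a fatty acid desaturase of the ER. None of the 5 passed for Hyp against normal, with log2 fold changes from -0.17 to 0.02.

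Around the members, 5 further lists were read by the brightest tested probe set of each gene. At the adjusted threshold over both sexes, 0 of 56 genes were higher and 4 lower, or 7.14% called. Of all probe sets tested, 2.38% were called, 1.3% toward lower signal. These include many dimmer probe sets, while nearly all of the 56 were called present on 20 of 20 arrays. In a separate fit of only the probe sets present on all 20 arrays, 1226 of 17691 were called. The 7.14% and 2.38% are thus not shares of like sets. Of 8 stress sensors and their proteases, 0 rose, 1 fell and 7 did not pass, and the median log2 fold change was -0.17 against 0.01 over all probe sets tested. Creb3, an ER membrane transcription factor cut like Atf6, averaged 1573 ± 159 in Hyp and 2000.4 ± 232 in normal shafts (SD, n = 10) and fell by 0.34 ± 0.076 on the log2 scale (adjusted p = 0.0321). In 16 of 25 omissions of an array or a series it missed the threshold, with log2 fold changes of -0.39 to -0.31, and a fit with the actin ratio as a term gave -0.44 and an adjusted p of 0.233. Creb3l1, named here after its value was seen, encodes the related factor Oasis, which activates Col1a1 in mouse osteoblasts. It averaged 2288 ± 469.9 in Hyp and 3369 ± 1114 in normal shafts, with a log2 fold change of -0.51 ± 0.15 (adjusted p = 0.0800), lower in 9 of 10 pairs.

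Of 13 other ER chaperones and folding enzymes tested, 0 rose and 0 fell, with a median of -0.08. The smallest adjusted p was that of Pdia3, a disulfide isomerase that works on glycoproteins, at 0.273 with -0.19 ± 0.093. Among 11 tested genes of ER-associated degradation, 0 rose, 1 fell and 10 did not pass, with a median of -0.08. Erlec1, a lectin that recognises glycoproteins for degradation, averaged 1881 ± 147 in Hyp and 2427 ± 278 in normal shafts, fell by 0.36 ± 0.070 (adjusted p = 0.0191) and was lower in 10 of 10 pairs. It missed the threshold in 3 of 25 omissions, and a fit with the actin ratio as a term gave -0.40 and an adjusted p of 0.250. Edem1, also named after its value was seen and a target of spliced Xbp1, had -0.38 ± 0.10 (adjusted p = 0.0600) and was lower in 10 of 10 pairs.

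Of 14 tested targets of the integrated stress response, the branch that runs through Atf4, 0 rose, 2 fell and 12 did not pass, with a median of -0.15. Nupr1, a small chromatin protein induced by stress, averaged 5349 ± 1379 in Hyp and 8273 ± 2345 in normal shafts and fell by 0.61 ± 0.14 (adjusted p = 0.0309). Psat1, an enzyme of serine synthesis, averaged 561 ± 82.5 in Hyp and 773 ± 135 in normal shafts and fell by 0.45 ± 0.10 (adjusted p = 0.0388), lower in 10 of 10 pairs. Nupr1 lost its call in 14 of 25 omissions, at -0.75 to -0.51, and Psat1 in 20, at -0.53 to -0.38. A fit with the actin ratio as a term gave Nupr1 -0.79 (adjusted p = 0.232) and Psat1 -0.24 (adjusted p = 0.625). Creb3 and Erlec1 had 3 tested probe sets each, and Nupr1 and Psat1 2 each, of which only the brightest was read. Toward higher signal, Ppp1r15b, a regulatory subunit of the phosphatase that reverses eIF2 alpha phosphorylation, also named after its value was seen, averaged 2314 ± 605 in Hyp and 1854 ± 373 in normal shafts. Its log2 fold change was 0.30 ± 0.087 (adjusted p = 0.0739), higher in 9 of 10 pairs, and that of the related Ppp1r15a was 0.33 ± 0.15 (adjusted p = 0.243). In this list 5 fold changes were positive and 9 negative. Among the negative ones were Chac1 at -0.62 ± 0.24 (adjusted p = 0.163) and Trib3, called present on 8 arrays, at -0.54 ± 0.21 (adjusted p = 0.159). Ppp1r15a, Chac1 and Trib3 were likewise named after their values were seen. The listed genes of secreted matrix proteins did not change past the threshold, and Dmp1, a matrix protein outside that list, is given with the osteocyte markers below. Of 10 tested, 0 rose and 0 fell, with a median of -0.08, and the smallest adjusted p was that of Col3a1, a fibrillar collagen, at 0.290 with 0.17 ± 0.089. The other lists' untested genes, Ero1b, Derl3, Sesn2 and Slc7a11, were called present on too few arrays, and Bglap and Spp1 were not analysed here.

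**Figure D4:**
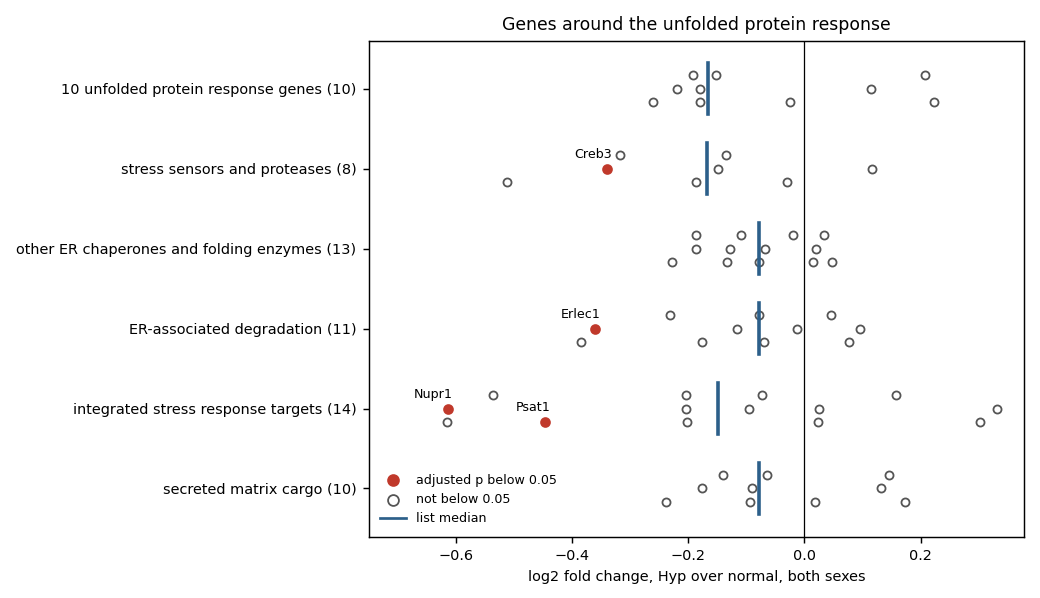
Log2 fold change of Hyp over normal over both sexes (x axis) for the 10 members and the genes of 5 further lists, each by its brightest tested probe set, with the number of genes in brackets. Filled points passed the adjusted threshold and are named, and blue lines are list medians. All 4 filled points lie below 0.

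Markers of the cell types that a shaft can hold moved with genotype in part. Phex is itself on the osteocyte list, and its fall is set by the mutation. Of the 5 other osteocyte markers, 3 fell (Sost, Dmp1 and Pdpn). Their summed signal without Phex, a sum added after the data were seen, ran from 7660.8 to 18114.9 in Hyp males, 19466.6 to 27801.7 in normal males, 9353.4 to 17438.3 in Hyp females and 20326.5 to 23923.8 in normal females. Dmp1, a matrix protein of osteocytes, fell by 0.79 ± 0.15 on the log2 scale (adjusted p = 0.0156). It made up most of that linear sum, at mean signals of 11658 in Hyp and 19410 in normal shafts. The sum therefore mainly repeats the fall of Dmp1. Of 4 osteoblast markers tested, 1 fell, Ifitm5, a membrane protein of mineralizing osteoblasts, by 0.87 ± 0.14 (adjusted p = 0.0090). Their sum ran from 21148.0 to 33124.4 in Hyp males, 23542.1 to 41015.1 in normal males, 26603.5 to 36017.0 in Hyp females and 32285.4 to 45132.9 in normal females. Over 25 omissions of an array or a series, Sost lost its call in 0, and Dmp1, Pdpn and Ifitm5 in 3 each. Each of these genes also missed the threshold in 3 of the other alternatives, and their log2 fold changes stayed negative throughout. With the actin ratio as a term, 1 probe set of all tested was called. Of 6 endothelial markers, 3 rose (Pecam1, Flt1 and Cldn5), Flt1 by 0.46 ± 0.087 on the log2 scale (adjusted p = 0.0175). Of 25 omissions of an array or a series, Pecam1 missed the threshold in 20, Cldn5 in 17 and Flt1 in 4, and all 3 missed it with the actin ratio as a term. Over all alternatives their log2 fold changes stayed positive, at 0.20 to 0.73 for Pecam1, 0.17 to 0.58 for Cldn5 and 0.35 to 0.54 for Flt1. The endothelial sum was 7977.8 to 10596.1 in Hyp males, 5673.2 to 7402.5 in normal males, 7657.0 to 10616.5 in Hyp females and 5391.2 to 7936.0 in normal females. The part of these markers in the Xbp1, Creb3, Erlec1, Nupr1 and Psat1 results was not tested.

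Plasma cells, which depend on Xbp1 for antibody secretion, and other marrow or attached cells showed 0 calls. Of 4 plasma cell markers tested, 0 passed, and 2 had positive and 2 negative fold changes. Sdc1 had -0.40 ± 0.13 (adjusted p = 0.116), the smallest p of the list, and Jchain had 0.60 ± 0.25 (adjusted p = 0.185), higher in 7 of 10 pairs, while Tnfrsf17 was called present on 0 arrays. The plasma cell sum was 2046.4 to 2699.7 in Hyp males, 2306.4 to 3239.8 in normal males, 2169.5 to 3064.9 in Hyp females and 2442.8 to 3333.3 in normal females. In the other lists the smallest adjusted p belonged to Cd79a for 5 B lymphocyte markers (-0.37, adjusted p = 0.102) and to Mpo for 6 neutrophil markers (0.47, adjusted p = 0.190). It belonged to Car1 for 5 erythroid markers (0.62, adjusted p = 0.0909), all 5 of which had positive fold changes. Osteoclast markers had Oscar (-0.33, adjusted p = 0.0599) and skeletal muscle markers Acta1 (0.14, adjusted p = 0.402), with 6 tested each. Fold changes were negative for all 5 B lymphocyte markers, 5 of 6 osteoclast, 3 of 6 neutrophil and 1 of 6 skeletal muscle markers. The erythroid sum was 24080.5 to 45856.8 in Hyp males, 10198.0 to 27421.6 in normal males, 13425.5 to 19174.2 in Hyp females and 11249.0 to 18269.5 in normal females. All 6 muscle and all 6 neutrophil markers were called present on 20 of 20 arrays, so the shafts held such transcripts too, and their part in the members' values was not tested.

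In the authors' deposited table, an analysis of variance on linear signals classed 10 of the 20 member probe sets as other than not significant for genotype, without adjustment, as it did 20.4% of all probe sets tested here. Xbp1 1420886_a_at and Atf4 1448135_at had the largest genotype F among the 20 in the authors' deposited table, at 28.3 and 22.6, with Hyp over normal ratios of 0.733 and 0.877. For the block of series the authors' deposited table classed 11 of 20 as other than not significant, against 23.4% of all, and for sex 4 of 20, against 14.0%. For the interaction it classed 1 of 20, Dnajb9, with an F of 7.05, against 6.82% of all. Dnajb9 had F values of 16.4 for genotype and 18.0 for sex in the authors' deposited table.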

How the data were processed

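Probe set signals of 20 arrays were taken as deposited intensity values, made by the authors with GCOS, the one tool in the submitters' processing notes, whose version and settings are not given in the sources used here. The deposited detection calls, and the authors' Hyp over normal ratio, F score and P class per term, came with them, per the file headers. Probe sets were named through the platform table given with the series, 34958 of 45101 with 1 symbol. Control probe sets (64) and those called present on fewer than 5 arrays were left out. Log2(signal + 16) was fitted with limma 3.58.1 under R 4.3.3 (lmFit, eBayes), with 4 groups and series as a block, and 2-sided p adjusted by Benjamini and Hochberg over 27141 probe sets. The same model was tested on simulated data. The block follows the labels (matched for littermates and processed in parallel). In a check of it, deviations from group means correlated at a median r of 0.215 within series (-0.03 to 0.418, 30 pairs of arrays) and -0.07 between them. The arrays are pools of different mice, so p-values measure the spread between pools. All probe sets of the members were named, a gene first by its brightest one. From each list the genes past the threshold, or otherwise the one with the smallest adjusted p, were named, and also the 5 probe sets most like Hspa5. Creb3l1, Edem1, Ppp1r15b, Ppp1r15a, Chac1, Trib3 and Jchain were named outside this rule. The members, lists and tests were chosen with earlier results of these data known. Promoter windows are RefSeq sequences of GRCm38.p6. Alternatives were no block, pseudocounts of 1 and 64, other present-call filters, quantile normalization, the actin ratio as a covariate, parts of the series, single omissions, ordinary analysis of variance and other probe sets.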

Additional observations from a re-analysis of the deposited data

Results flagged for a closer look

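Among 44 groups of 5 arrays examined (the 4 groups of the brightest probe sets and of Xbp1 1420886_a_at), 2 held an array set apart from the rest by Dixon's criterion, which chance meets in about 1 of 20 groups. Atf4 1448135_at had its lowest signal in Hyp male 5, at 4975.2, where the other 4 Hyp males had 5856.5 to 6101.2. Sdf2l1 1418206_at had its lowest signal in Hyp female 1, at 273.6, where the other 4 Hyp females had 339.4 to 370.0. Neither gene passed for Hyp against normal with or without that array.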

How the results depend on the processing

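Precision is limited by the 20 arrays: the median SE on the log2 scale was 0.11 for Hyp against normal with the sexes joined, against 0.16 in males or females alone. The number of probe sets called over both sexes, 647 with the series block, was 317 with no replicate block, 148 with no filter on present calls, 1226 with a present call on all 20 arrays, 1 with the actin ratio as a covariate, 0 in series 1 and 2 alone and 1 in series 3 to 5 alone. It ran from 20 to 1343 over the 25 omissions of an array or a series. In males, 27 became 2 with no replicate block, 129 with a pseudocount of 64, 4 with no filter, 332 with a call on all arrays, 53 with quantile normalization, 2 with the actin ratio, 0 and 1 in the 2 parts of the series, 75 by ordinary analysis of variance and 1 to 312 over omissions. In females, 1 became 0 with a pseudocount of 1, 6 with 64, 3 with a call on all arrays, 2 with quantile normalization, 0 in series 1 and 2, 2 by ordinary analysis of variance and 1 to 22 over omissions. The interaction gave 1, and 0 with a call on all arrays and in series 1 and 2, or 1 to 2 over omissions. Females against males gave 36, and 59 with a pseudocount of 64, 9 and 23 in the parts of the series, and 26 to 153 over omissions. Among the members, Xbp1 1420886_a_at stayed lower under all 35 alternatives, at log2 -0.51 to -0.39. Its adjusted p was 0.0408 with no replicate block, 0.0656 without the filter, 0.281 with the actin ratio, 0.285 and 0.298 in the parts of the series, and it missed the threshold in 4 of 25 omissions, those of series 1, 2, 4 and 5. Without the block no member's call changed, while Nupr1 (adjusted p = 0.104), Psat1 (0.0532) and Pecam1 (0.0562) missed the threshold. By ordinary analysis of variance, Atf4 (adjusted p = 0.0313) and Dnajb9 (0.0428) passed too. The sign turned with the probe set for Hspa5 (0.21 against -0.032 and -0.28), Xbp1 (-0.18 against 0.13) and Atf4 (-0.19 against 0.12). It turned for Hsp90b1 in series 3 to 5 (0.032) and without series 1, Hyp female 2 or normal male 5, over omissions that gave -0.11 to 0.015, and for Sdf2l1 in series 3 to 5 (-0.13) and without series 1, over omissions that gave -0.013 to 0.23. The cause was not tested. Directions of the other members (Atf6, Ddit3, Herpud1, Dnajb9 and Pdia4) did not turn under any alternative run.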
